A study of Mus musculus with 9 samples.

Results

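The growth hormone and STAT5 axis was examined through 10 genes of 18194 on the array. They are the receptor Ghr, the transcription factors Stat5a and Stat5b, the feedback inhibitors Socs2 and Cish, the repressor Bcl6, and the liver genes Hsd3b5, Susd4, Mup3 and Mup10. The members were taken by name, with every probe set that carries only that gene's symbol, which gave 22 of the 45101 probe sets. RNA was measured on Affymetrix arrays in 3 pieces of a hepatocellular carcinoma with severe steatosis (tumor), 3 pieces of uninvolved liver next to it with altered cells and severe steatosis (adjacent liver), and 3 pieces of normal liver with mild steatosis (wild-type liver). Tumor and adjacent liver came from the same SART1+/- mouse and wild-type liver from 1 wildtype mouse, all C57Bl6 males of 12 months on regular chow with no treatment. SART1, the gene altered in the mutant, encodes a splicing factor that also acts on hypoxia-inducible factors. Its log2 level was 7.77, 7.71 and 7.75 in tumor, 8.34, 8.39 and 8.38 in adjacent liver, and 8.35, 8.32 and 8.36 in wild-type liver. The tumor pieces lie below the others, and the adjacent pieces labelled SART1+/- overlap the wild-type pieces (difference 0.03, adjusted p = 0.678 in limma). How the allele was altered and where the probes lie on it are not stated in the labels, so this level does not check the genotype. The p-values below measure the spread between pieces of 1 organ or tumor, not between animals, and genotype, animal and labelled steatosis cannot be told apart between the mouse with the tumor and the wild-type mouse.

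Growth hormone from the pituitary binds its receptor on hepatocytes and activates the kinase JAK2, which phosphorylates STAT5A and STAT5B. The paired STAT5 proteins enter the nucleus and bind DNA at sites of the form TTCNNNGAA, where N is any base. Male rodents release the hormone in separate pulses and females almost continuously, and liver genes that respond to the pulses are expressed more in males. SOCS2 and CISH are induced by STAT5 and damp the receptor's signal, and BCL6 is a repressor whose DNA sites overlap those of STAT5.

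The motif was looked for in promoter windows from RefSeq (build GRCm38.p6), each running from 250 bases before to 50 bases after an annotated gene start. Windows were found for 9 of the 10 members, 14 windows in all, and none for Socs2. Matches lay in 3 of these windows, 1 of Cish and 2 of Bcl6, and 8.3% of all 32851 windows of this length hold a match. By gene this is 2 of 9 members, beside 9.55% of all genes with a window. The members were chosen as genes of the STAT5 axis, so these counts are no test. The 3 windows are shown because these STAT5-linked regulators differed in opposite directions in adjacent liver. Capitals mark the motif, which reads the same on both strands, and no match overlaps another.
Cish, chr9:107296409-107296708, plus strand: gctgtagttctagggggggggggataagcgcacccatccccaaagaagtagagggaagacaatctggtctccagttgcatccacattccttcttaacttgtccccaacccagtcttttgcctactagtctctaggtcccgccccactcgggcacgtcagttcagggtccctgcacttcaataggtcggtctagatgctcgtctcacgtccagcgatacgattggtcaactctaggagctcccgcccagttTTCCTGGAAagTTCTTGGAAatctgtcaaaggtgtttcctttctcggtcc
Bcl6, upstream start, chr16:23988803-23989102, minus strand: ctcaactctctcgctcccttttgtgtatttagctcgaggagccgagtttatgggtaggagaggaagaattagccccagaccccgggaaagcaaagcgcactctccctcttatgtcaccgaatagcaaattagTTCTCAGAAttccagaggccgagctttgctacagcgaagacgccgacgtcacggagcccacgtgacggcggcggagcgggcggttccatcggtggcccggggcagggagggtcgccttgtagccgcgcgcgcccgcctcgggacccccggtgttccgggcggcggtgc
Bcl6, downstream start, chr16:23981234-23981533, minus strand: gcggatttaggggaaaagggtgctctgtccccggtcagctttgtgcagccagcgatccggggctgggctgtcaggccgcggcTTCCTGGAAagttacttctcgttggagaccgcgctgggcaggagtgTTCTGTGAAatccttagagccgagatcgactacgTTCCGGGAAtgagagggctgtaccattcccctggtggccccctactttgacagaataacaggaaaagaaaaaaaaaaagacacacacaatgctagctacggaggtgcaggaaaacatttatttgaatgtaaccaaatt
The Cish window holds 2 matches, at bases 1 to 9 and 12 to 20 counted from the start, and 0.457% of all windows hold 2 or more. The downstream Bcl6 window holds 3, beginning at bases -168, -122 and -88 counted from the start, and 11 of all windows hold 3 or more. No match lay in the windows of Ghr, Stat5a, Stat5b, Hsd3b5, Susd4, Mup3 or Mup10, which says only that these letters are absent from these stretches.

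Values are log2 expression, so a difference of 1 is 2-fold. A gene is called when its adjusted p in limma is under 0.05 and its log2 difference is at least 1 in size, and rose or fell is written only of called genes. Each gene is represented by its brightest probe set unless another is named. In tumor against wild-type liver 6 of the 10 members fell and 0 rose, where 13% of all 13888 genes tested were called, 4.59% lower and 8.41% higher. In adjacent against wild-type liver 6 fell and 1 rose, where 11.5% of all genes were called, 3.22% lower and 8.29% higher. Between tumor and adjacent liver 2 members were lower in tumor and 1 higher, where 5.04% of all genes were called, 2.94% lower and 2.1% higher. By adjusted p alone, 8, 9 and 8 members passed in these comparisons, beside 63.4%, 63% and 45.2% of all genes. Groups did not overlap for 8, 9 and 6 members, beside 69.1%, 69.5% and 53% of all genes, so these shares are near the background. Of the 19 member probe sets tested, 10, 12 and 5 were called, beside 12%, 10.7% and 4.72% of the 24140 probe sets with 1 symbol that were tested. The members' median log2 differences were -1.31, -1.59 and -0.54 in these comparisons, beside medians of -0.01, -0.01 and -0.01 over all genes. The members were listed with earlier results of these data known, so these counts describe them and are no test of the list. All 10 passed the filter on dim genes, 8 of them on 9 of 9 arrays, Hsd3b5 on 7 and Mup10 on 5.

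**Figure D1:**
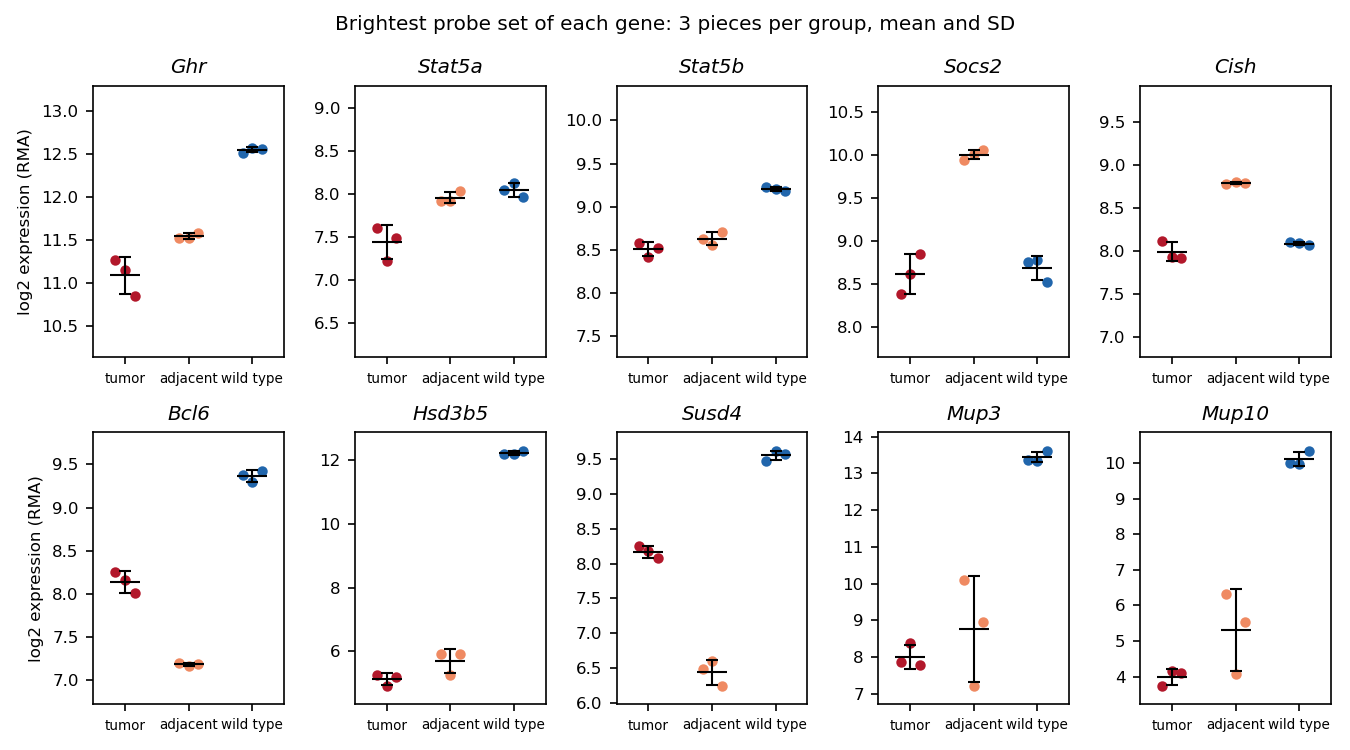
Log2 expression of the brightest probe set of each of the 10 genes in every piece (points), with the mean and SD of the 3 pieces of a group; the vertical scale differs between panels. Ghr, Stat5b, Bcl6, Hsd3b5, Susd4, Mup3 and Mup10 are highest in all 3 wild-type pieces, while Socs2 and Cish are highest in all 3 adjacent pieces.

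The receptor was lower in both tissues of the mouse with the tumor. Ghr, which carries the hormone's signal across the cell membrane, was at 11.26, 11.15 and 10.85 in tumor, at 11.52, 11.52 and 11.58 in adjacent liver and at 12.51, 12.57 and 12.56 in wild-type liver. The groups do not overlap, and the order is tumor, adjacent liver, wild-type liver from low to high. Ghr fell by 1.46 in tumor against wild-type liver (SE 0.09, adjusted p = 2.61e-07), which is 2.75-fold. Adjacent against wild-type liver gave -1.004 (SE 0.09, adjusted p = 5.41e-06). This lies on the 2-fold limit, and without adjacent replicate 1 or 2, or wild-type replicate 2 or 3, the difference was -0.99 to -0.998 and just missed it. Tumor minus adjacent liver was -0.45 (SE 0.09, adjusted p = 0.00243), under the limit. The other probe sets of Ghr had larger differences. One gave -2.14 in tumor and -1.52 in adjacent liver against wild-type liver, and the other -1.70 and -1.14, and both were called in both comparisons. In tissue pieces, fewer cells of a type and less RNA per cell cannot be told apart.

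Against wild-type liver the transcription factors differed less than the receptor, and neither was called in any comparison. Stat5b, the main STAT5 protein of male mouse liver, was at 8.58, 8.42 and 8.53 in tumor, at 8.63, 8.55 and 8.71 in adjacent liver and at 9.23, 9.21 and 9.18 in wild-type liver. Tumor and adjacent pieces overlap, and all lie below the wild-type pieces. Against wild-type liver the log2 difference was -0.70 in tumor (SE 0.06, adjusted p = 4.22e-06) and -0.58 in adjacent liver (SE 0.06, adjusted p = 2.02e-05). Its other probe set gave -0.33 and -0.41 in the same comparisons. Tumor minus adjacent liver was -0.12, with a 95% interval of -0.26 to 0.02 (adjusted p = 0.16).

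Stat5a, the closely related factor best known from mammary gland, was lower in tumor than in both other tissues, under the limit. Its values were 7.60, 7.23 and 7.49 in tumor, 7.92, 7.92 and 8.03 in adjacent liver and 8.04, 8.13 and 7.96 in wild-type liver. All tumor pieces lie below the others, whereas adjacent and wild-type pieces overlap. Tumor differed from wild-type liver by -0.60 (SE 0.09, adjusted p = 0.000221) and from adjacent liver by -0.51 (SE 0.09, adjusted p = 0.00111). Adjacent minus wild-type liver was -0.09, with a 95% interval of -0.30 to 0.12 (adjusted p = 0.415). The dimmer probe set of Stat5a had the opposite sign there, at 0.22 (adjusted p = 0.0124 over all probe sets), so the direction in adjacent liver is not settled.

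Both feedback inhibitors were higher in adjacent liver than in either other tissue. Socs2, a suppressor of cytokine signalling that limits growth hormone action, was at 8.39, 8.62 and 8.85 in tumor, at 9.95, 10.01 and 10.06 in adjacent liver and at 8.76, 8.78 and 8.52 in wild-type liver. Adjacent pieces lie above all others, and tumor and wild-type pieces overlap. Socs2 rose in adjacent against wild-type liver by 1.32 (SE 0.11, adjusted p = 2.55e-06), which is 2.49-fold. It was lower in tumor than in adjacent liver, with a difference of -1.39 (SE 0.11, adjusted p = 3.83e-06). Tumor minus wild-type liver was -0.07, with a 95% interval of -0.32 to 0.18 (adjusted p = 0.598).

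Of the 6 probe sets of Socs2, the brightest pair carried this difference. The other of the pair gave 1.69 for adjacent against wild-type liver and -1.72 for tumor against adjacent liver (adjusted p = 2.2e-08 and 7.21e-08 over all probe sets). The remaining probe sets averaged 3.46 to 6.13 in the groups, and 2 of them lay below the 40th percentile of every array. Their adjacent minus wild-type differences were between -0.47 and 0.15. Averaging all 6 therefore lowered the difference for adjacent against wild-type liver to 0.41 and that for tumor against adjacent liver to -0.59, and ended both calls.

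Cish, the other STAT5-induced inhibitor, had the same order with a smaller difference. It was at 8.12, 7.94 and 7.92 in tumor, at 8.79, 8.80 and 8.79 in adjacent liver and at 8.11, 8.09 and 8.07 in wild-type liver. The 3 adjacent pieces lie within 0.02 of each other and above all other pieces. Cish was higher in adjacent than in wild-type liver by 0.70 (SE 0.06, adjusted p = 4.28e-06), and lower in tumor than in adjacent liver, with a difference of -0.80 (SE 0.06, adjusted p = 3.74e-06). Both are under the 2-fold limit. Tumor minus wild-type liver was -0.09, with a 95% interval of -0.24 to 0.05 (adjusted p = 0.216).

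The repressor was lowest where the inhibitors were highest. Bcl6, a zinc finger repressor expressed more in male than in female mouse liver, was at 8.25, 8.15 and 8.004 in tumor, at 7.20, 7.16 and 7.19 in adjacent liver and at 9.38, 9.29 and 9.42 in wild-type liver. No groups overlap. Bcl6 fell by 2.18 in adjacent against wild-type liver (SE 0.07, adjusted p = 2.76e-09), which is 4.55-fold, and fell by 1.23 in tumor against wild-type liver (SE 0.07, adjusted p = 1.12e-07). Tumor was above adjacent liver by 0.95 (SE 0.07, adjusted p = 2.27e-06), just under the limit. The other probe set of Bcl6 gave -1.82, -1.14 and 0.68 in these comparisons.

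Susd4, a membrane protein with complement control domains whose gene is expressed more in male mouse liver, had the order of Bcl6 with larger differences. It was at 8.25, 8.17 and 8.07 in tumor, at 6.48, 6.59 and 6.24 in adjacent liver and at 9.48, 9.61 and 9.57 in wild-type liver. Tumor pieces lie between the other groups, without overlap. Susd4 fell by 3.12 in adjacent against wild-type liver (SE 0.09, adjusted p = 1.5e-09), which is 8.68-fold, and fell by 1.39 in tumor against wild-type liver (SE 0.09, adjusted p = 2.87e-07). It was higher in tumor than in adjacent liver by 1.73 (SE 0.09, adjusted p = 2.33e-07). The other probe set of Susd4 gave -3.38, -1.56 and 1.82, and all were called.

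**Figure D2:**
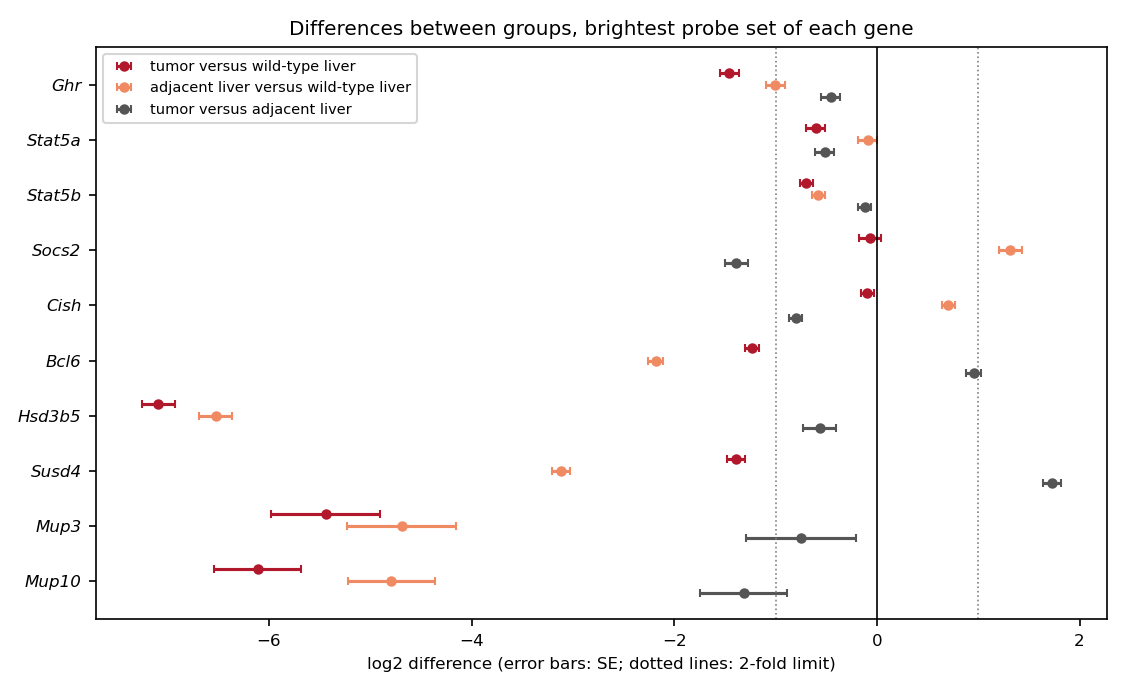
Log2 differences of the 10 genes in the 3 comparisons, with SE as error bars and the 2-fold limit as dotted lines. Hsd3b5, Mup3 and Mup10 lie at -4.69 or below in both comparisons with wild-type liver, and Bcl6 and Susd4 lie right of 0 for tumor against adjacent liver, where Socs2 lies at -1.39.

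The pulse-dependent enzyme Hsd3b5 had the largest differences from wild-type liver of the 10, in tumor with Mup10 next and both dim there. It encodes a 3-ketosteroid reductase of male mouse liver. Its values were 5.26, 4.92 and 5.21 in tumor, 5.91, 5.26 and 5.91 in adjacent liver and 12.19, 12.18 and 12.29 in wild-type liver. Wild-type pieces lie far above all others, and tumor and adjacent pieces just overlap. Hsd3b5 fell by 7.09 in tumor (SE 0.16, adjusted p = 1.56e-10) and fell by 6.53 in adjacent liver (SE 0.16, adjusted p = 5.1e-10), both against wild-type liver. In 2 of the 3 tumor pieces it lay below the 40th percentile of the array, so the size of that difference depends on background. Tumor minus adjacent liver was -0.57 (SE 0.16, adjusted p = 0.0148), under the limit.

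The major urinary protein genes encode pheromone carriers that male mouse liver secretes in bulk. Mup3 was at 7.87, 8.38 and 7.77 in tumor, at 10.09, 7.22 and 8.96 in adjacent liver and at 13.37, 13.35 and 13.62 in wild-type liver. Wild-type pieces lie above all others, and the adjacent pieces span the tumor values. Mup3 fell by 5.44 in tumor (SE 0.54, adjusted p = 7.6e-06) and fell by 4.69 in adjacent liver (SE 0.54, adjusted p = 2.68e-05), against wild-type liver. Another probe set of Mup3 lay below the 40th percentile on all 9 arrays, with group means of 2.77 in tumor, 2.64 in adjacent liver and 3.25 in wild-type liver, and was not tested.

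Mup10 was at 3.75, 4.15 and 4.09 in tumor, at 6.32, 4.08 and 5.53 in adjacent liver and at 10.00, 9.98 and 10.34 in wild-type liver. All tumor pieces and 1 adjacent piece lie below the 40th percentile, and those groups overlap. Mup10 fell by 6.11 in tumor (SE 0.43, adjusted p = 5.05e-07) and fell by 4.79 in adjacent liver (SE 0.43, adjusted p = 3.92e-06), against wild-type liver. It was also called lower in tumor than in adjacent liver, at -1.32 (SE 0.43, adjusted p = 0.0282), but this call is not stable. It was lost without adjacent replicate 1 (-0.81, adjusted p = 0.0858) or 3 (-1.20, adjusted p = 0.0882) and without tumor replicate 1, 2 or 3 (adjusted p = 0.0888, 0.0568 and 0.0575). The Mup3 probe sets are of a type whose probes also match other transcripts, so signal may be shared between members of the Mup family. Of 19 other Mup genes listed, only Mup5 had a probe set of its own. It fell by 2.31 in tumor and fell by 1.75 in adjacent liver against wild-type liver (SE 0.21 each, adjusted p = 3.9e-06 and 3.68e-05).

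The adjacent pieces differed among themselves in the Mup genes more than in the regulators. The range over the 3 adjacent pieces was 2.87 for Mup3 and 2.25 for Mup10, which rank 2 and 5 of the 13888 genes tested, with piece 2 the lowest in each. The other liver genes lay between, at 0.65 for Hsd3b5, again with piece 2 the lowest, and 0.35 for Susd4, with piece 3 the lowest. For Stat5a and Stat5b the range was 0.12 and 0.15. For Ghr, Socs2, Cish and Bcl6 it was 0.06, 0.11, 0.02 and 0.04. Without adjacent replicate 2 the Mup3 difference between tumor and adjacent liver was -1.52 (adjusted p = 0.00211), against -0.75 (adjusted p = 0.301) with it. In tumor the ranges were 0.61 for Mup3 and 0.40 for Mup10, and in wild-type liver 0.27 and 0.36.

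**Figure D3:**
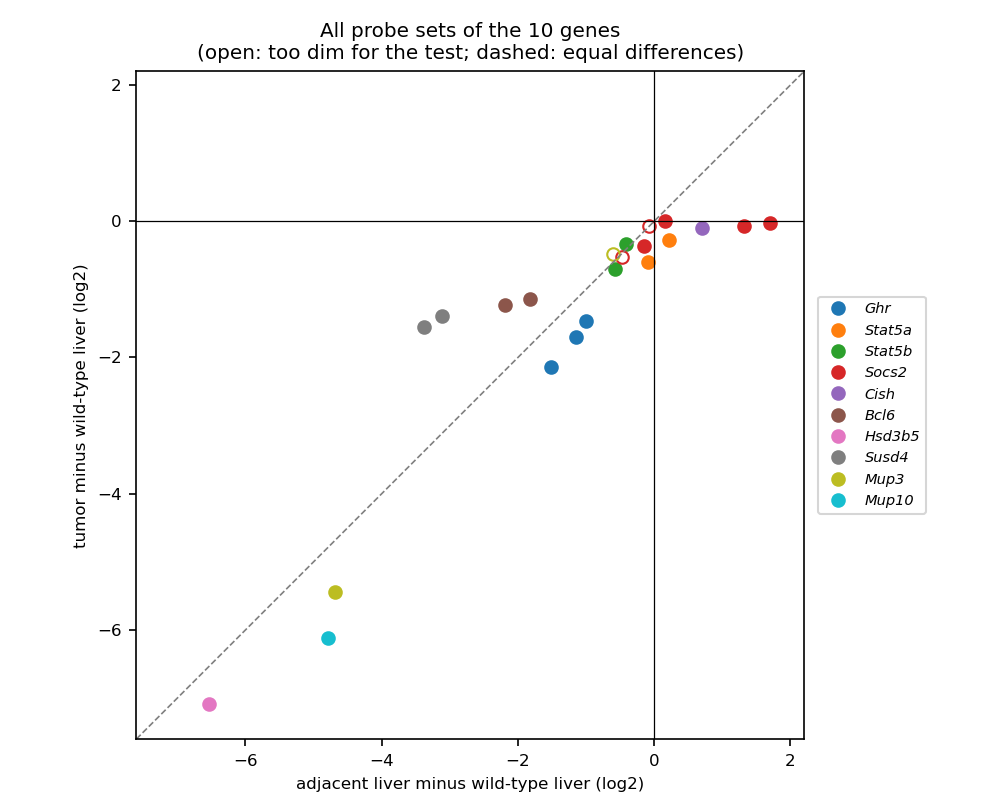
Differences from wild-type liver of all 22 probe sets of the 10 genes, adjacent liver on the horizontal and tumor on the vertical axis (log2); filled points passed the filter (19) and open ones were too dim. Bcl6 and Susd4 lie above the dashed line of equal differences, Ghr below it, and the brightest pair of Socs2 probe sets lies far right near a tumor difference of 0. The axes share the wild-type arrays, so the points are not independent on them.

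Other genes of the growth hormone pathway were mixed. Of 18 listed, 16 were tested. In tumor against wild-type liver 2 rose and 2 fell, and in adjacent against wild-type liver 2 rose and 1 fell, with list medians of 0.25 and 0.05. Between tumor and adjacent liver 1 was lower in tumor and 0 higher, with a median of 0.04. Over all genes tested, 8.41% rose and 4.59% fell in tumor, and 8.29% rose and 3.22% fell in adjacent liver, against wild-type liver. Between tumor and adjacent liver 2.94% of all genes were lower in tumor and 2.1% higher. With so few genes called, these counts are not read as a result about the list. Igf1, the circulating growth factor that the liver makes under growth hormone, averaged 10.55 ± 0.12 in tumor, 11.40 ± 0.11 in adjacent liver and 12.74 ± 0.05 in wild-type liver (SD, n = 3 each). It fell by 2.19 in tumor and fell by 1.33 in adjacent liver against wild-type liver (adjusted p = 3.8e-09 and 1.81e-07). Igfals, which encodes the subunit that holds IGF1 in its large serum complex, averaged 8.45 ± 0.27 in tumor, 10.77 ± 0.03 in adjacent liver and 10.73 ± 0.16 in wild-type liver. It fell by 2.27 in tumor against wild-type liver (adjusted p = 7.91e-08), whereas adjacent minus wild-type liver was 0.05 (adjusted p = 0.758), and tumor minus adjacent liver was -2.32 (adjusted p = 2.68e-07).

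Socs3, an inhibitor induced mainly by interleukin-6 and STAT3, rose by 1.89 in tumor and by 1.35 in adjacent liver against wild-type liver (SE 0.11 each). Unlike Socs2 and Cish, it was higher in tumor than in adjacent liver, by 0.54 (adjusted p = 0.00251), under the limit. Sirpa, a membrane protein that binds SHP phosphatases, rose by 2.08 in tumor and 2.16 in adjacent liver. The phosphatase Ptpn1 was higher by 0.76 and 0.63, under the limit. Jak2, the receptor's kinase, was chosen after its values were seen and gave 0.23 in tumor (adjusted p = 0.0259) and 0.38 in adjacent liver (adjusted p = 0.00171).

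Of 12 listed regulators of sex-biased liver genes, 10 were tested. In tumor against wild-type liver 1 fell and 0 rose, and in adjacent against wild-type liver 2 fell and 0 rose, with medians of -0.26 and -0.17. Between tumor and adjacent liver 1 was higher in tumor and 1 lower, with a median of -0.06. The shares over all genes tested were 4.59% lower and 8.41% higher, 3.22% and 8.29%, and 2.94% and 2.1% in these comparisons. With so few regulators called, their counts are not read as a result about the list. Foxa1, a forkhead factor that opens chromatin in hepatocytes, averaged 8.46 ± 0.11 in tumor, 7.25 ± 0.22 in adjacent liver and 8.53 ± 0.12 in wild-type liver. It fell by 1.28 in adjacent against wild-type liver and was higher in tumor than in adjacent liver by 1.21 (SE 0.11 each, adjusted p = 3.06e-06 and 9.61e-06). Esr1, the estrogen receptor, fell by 1.12 in tumor against wild-type liver and differed by -1.40 between tumor and adjacent liver (SE 0.10 each, adjusted p = 2.61e-06 and 1.43e-06). Cebpb fell by 1.07 in adjacent against wild-type liver (adjusted p = 2.48e-07). Cux2, a repressor of male-biased genes in female liver, was chosen after its values were seen and differed by -0.44 in tumor and -0.21 in adjacent liver against wild-type liver (adjusted p = 0.000285 and 0.0237).

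Male-biased liver genes outside the members mostly fell. Of 19 listed, 15 were tested. In tumor against wild-type liver 10 fell and 1 rose, with a list median of -1.49, and in adjacent against wild-type liver 8 fell and 0 rose, with a median of -1.08. Between tumor and adjacent liver 2 were higher in tumor and 4 lower, with a median of -0.57. By adjusted p alone, 10 were lower and 2 higher in adjacent against wild-type liver, beside 63% of all genes in either direction. Of all genes tested, 4.59% fell and 8.41% rose in tumor, and 3.22% fell and 8.29% rose in adjacent liver, against wild-type liver. Between tumor and adjacent liver 2.94% were lower in tumor and 2.1% higher. The list was drawn up with earlier results of these data known, so its counts are no test. Slco1a1, an organic anion transporter, fell by 6.27 in tumor and fell by 5.70 in adjacent liver (SE 0.14 each). Cyp7b1, an oxysterol hydroxylase, fell in both, with differences of -4.46 in tumor and -1.61 in adjacent liver. Nudt7, a peroxisomal coenzyme A hydrolase, fell with differences of -3.42 and -1.78. Egfr, the epidermal growth factor receptor, fell by 2.12 in adjacent liver and, like Susd4, was higher in tumor than in adjacent liver, by 1.25 (adjusted p = 5.22e-06). Serpina12, an adipokine of the serpin family, rose by 1.85 in tumor against wild-type liver and gave -0.12 in adjacent liver (adjusted p = 0.201).

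The female-biased list did not move one way. Of 21 listed, 11 were tested. In tumor 5 rose and 2 fell, and in adjacent liver 5 rose and 2 fell, both against wild-type liver, with medians of 0.15 and 0.49. Between tumor and adjacent liver 3 were higher in tumor and 2 lower, with a median of -0.21. The shares over all genes tested were 8.41% higher and 4.59% lower, 8.29% and 3.22%, and 2.1% and 2.94% in these comparisons. This list too was drawn up with earlier results of these data known, so its counts are no test. Prom1, a membrane glycoprotein that also marks progenitor cells, rose by 4.32 in tumor and 5.08 in adjacent liver (SE 0.13 each). Rtn4 rose by 1.90 and 2.11, and Abcd2, a peroxisomal fatty acid transporter, by 3.32 and 2.24. Gna14 fell in both, with differences of -1.57 in tumor and -1.38 in adjacent liver. Cyp2b9, a cytochrome P450 strongly female-biased in mice, averaged 10.32 ± 0.19 in tumor, 7.29 ± 0.57 in adjacent liver and 8.59 ± 0.66 in wild-type liver. Against wild-type liver it rose in tumor and fell in adjacent liver, with differences of 1.72 and -1.31. It was higher in tumor than in adjacent liver by 3.03 (SE 0.32, adjusted p = 3.08e-05). Hao2, a peroxisomal hydroxyacid oxidase, and Acot3, an acyl-CoA thioesterase, ran the other way, at -2.62 and -2.39 for tumor against adjacent liver (adjusted p = 7.89e-07 and 3.05e-07).

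**Figure D4:**
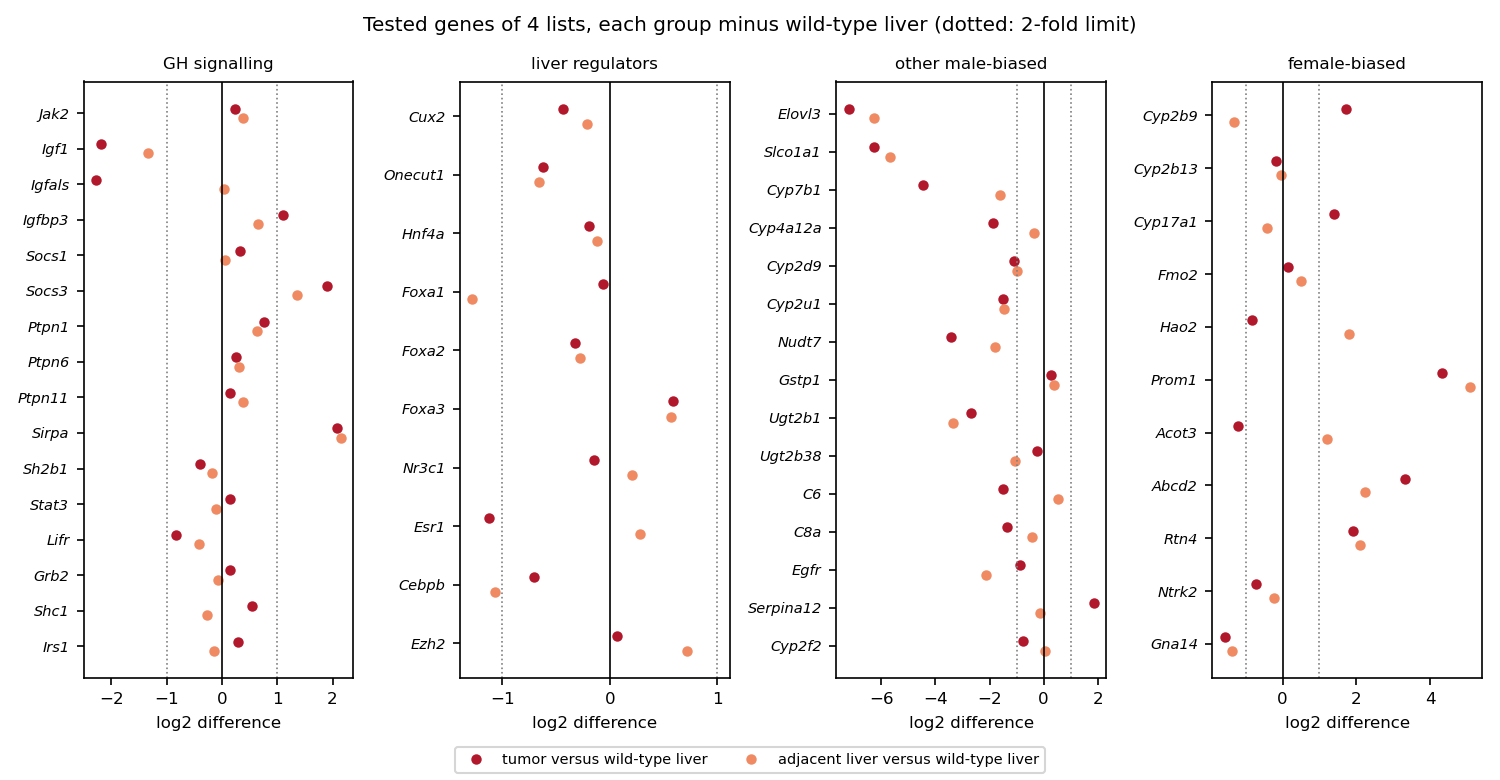
Log2 differences from wild-type liver of the tested genes of 4 lists, in tumor and in adjacent liver, with the 2-fold limit as dotted lines. Most other male-biased genes lie left of 0, with Elovl3 and Slco1a1 at -5.70 or below in both tissues, whereas the female-biased genes lie on both sides.

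Genes with the pattern most like that of a member were ranked by the root mean square difference over the 9 arrays, after each gene was centred on its wild-type mean. Nearest to Ghr was Mat1a, the liver enzyme that makes S-adenosylmethionine, at 0.09, followed by Pyurf at 0.09 and the esterase Aadac at 0.10. Mat1a differed from wild-type liver by -1.35 in tumor and -1.01 in adjacent liver. Nearest to Socs2 were the SH2-domain gene Sh2d4a at 0.13, Zranb3 at 0.16 and the kinase gene Camkk2 at 0.16. Sh2d4a averaged 6.45 ± 0.12 in tumor, 7.70 ± 0.11 in adjacent liver and 6.44 ± 0.11 in wild-type liver. Nearest to Hsd3b5 were the elongase Elovl3 at 0.35, Slco1a1 at 0.69 and the bile acid enzyme Cyp8b1 at 1.07. Elovl3 was at 5.65, 5.67 and 5.25 in tumor, at 7.13, 5.43 and 6.85 in adjacent liver and at 12.69, 12.74 and 12.78 in wild-type liver.

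Facts of the whole set bear on these values. Arrays correlated at r = 0.996 to 0.998 across probe sets within groups and at 0.959 to 0.984 between them. The 3′ minus 5′ difference of Actb, a measure of RNA quality, was 0.59 ± 0.09 in tumor, 0.85 ± 0.05 in adjacent liver and 0.86 ± 0.02 in wild-type liver (log2, SD, n = 3 each). That of Gapdh was 0.21 ± 0.01 in tumor, 0.16 ± 0.02 in adjacent liver and 0.27 ± 0.02 in wild-type liver. The 18S ribosomal RNA signal was 6.499 to 6.536 in tumor, 6.27 to 6.68 in adjacent liver and 6.92 to 8.31 in wild-type liver. The wild-type arrays lie above all others in the Gapdh and 18S measures, and the part of RNA quality in the differences of the 10 genes was not tested. Hepatocyte markers other than Ass1 were high in all groups. The summed linear signal over 8 tested genes was 110767 to 114241 in tumor, 108593 to 110298 in adjacent liver and 114935 to 117584 in wild-type liver. Of these 8, Cps1 was called lower in tumor, and the Ass1 probe set in tumor and in adjacent liver, against wild-type liver. That probe set was dim, averaging 4.67 in tumor, 4.66 in adjacent liver and 5.74 in wild-type liver. Its tumor and adjacent means are under the cut-off for dim genes on those arrays, which was 5.16 to 5.22. The size of its differences therefore depends on background, and whether it follows the Ass1 transcript was not tested. Its calls are not read as a fall of the gene.

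Markers of some other cell types differed between the groups. Over all genes tested, 8.41% rose and 4.59% fell in tumor, and 8.29% rose and 3.22% fell in adjacent liver, against wild-type liver. The counts below for endothelial and for T and NK cell markers are near these shares. Against wild-type liver, 3 of 10 macrophage markers rose and 2 fell in tumor, and 2 rose and 3 fell in adjacent liver. Cd68 and Lyz2 rose in both. The markers of resident Kupffer cells were mixed. Timd4 and Cd163 fell in both, and Marco gave -0.50 in tumor and fell in adjacent liver, with a difference of -1.11. Cd5l rose in tumor and gave 0.93 in adjacent liver. Vsig4 gave 0.50 in tumor and 0.18 in adjacent liver, and Clec4f gave -0.06 and -0.24. Further, 4 of 9 stellate markers rose and 1 fell in each tissue. Of 6 neutrophil markers 3 rose in each, of 6 cholangiocyte markers 2 rose in each, and of 9 endothelial markers 1 rose in each and 1, Clec4g, fell in adjacent liver. The summed signal of the macrophage markers was 13786 to 16766 in tumor, 11129 to 16253 in adjacent liver and 8825 to 9628 in wild-type liver, and that of the stellate markers 10330 to 14840, 9615 to 11717 and 6342 to 8855 in the same tissues. For neutrophil markers it was 1587 to 1897 in tumor, 1263 to 1604 in adjacent liver and 473 to 505 in wild-type liver. In tumor 1 of 7 T and NK cell markers and 2 of 5 B cell markers rose, and in adjacent liver 1 of 7 and 0 of 5. The summed signal of the B cell markers was 1153 to 1605 in tumor, 481 to 528 in adjacent liver and 421 to 447 in wild-type liver. Its brightest gene, Jchain, averaged 9.82, 7.79 and 7.60 in these tissues (log2). The summed signal of the cholangiocyte markers was 1571 to 1750 in tumor, 2217 to 2711 in adjacent liver and 527 to 565 in wild-type liver. This sum largely follows Cldn7, which averaged 9.16, 10.66 and 5.36 in these tissues (log2), and Krt23 rose as well. Against wild-type liver Sox9 gave 0.73 in tumor and 0.99 in adjacent liver, Krt19 0.31 and -0.13, and Krt7 0.09 and 0.21, none called. For endothelial markers the summed signal was 4252 to 5332, 3511 to 4925 and 5289 to 5712 in the same tissues, and for T and NK cell markers 710 to 725, 678 to 830 and 582 to 630. Alas2, the 1 erythroid marker tested, was at 305 to 341 in tumor, 419 to 432 in adjacent liver and 2064 to 2179 in wild-type liver, and Retn, the 1 adipocyte marker tested, was not called. No tested marker lay below the 40th percentile on all arrays. Their part in the differences of the 10 genes was not tested.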

How the data were processed

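RNA from 9 tissue pieces was hybridised to 1-colour Affymetrix 3′ expression arrays, 1 array per piece. The values are the authors' deposited log2 expression per probe set, for which the submitters' processing notes name Expression Console 1.3.1.187 of Affymetrix and RMA. That method corrects background, equalises the arrays' distributions and summarises probes, so a change that moves most genes one way would be hidden. No detection calls or scan dates were used. The number of arrays limits the precision.

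Probe sets were named from the platform annotation (34958 with 1 symbol, 932 with several, 9211 with none), and all 22 member probe sets kept their symbol in RefSeq (GRCm38.p6). A gene was represented by its brightest probe set and tested when above an array's 40th percentile on at least 3 of 9 arrays, which left 13888 genes. limma 3.58.1 in R 4.3.3 fitted 1 mean per group over the 9 arrays (6 residual degrees of freedom), with Benjamini-Hochberg adjustment over all genes. Further probe sets of a member take their values from the same model over 24140 probe sets. Simulated data had 100 genes changed by 1 and 100 by 2 on the log2 scale, among 13888. Their noise was normal and independent, with 1 spread per gene for all groups. All changes of 2 were called in each comparison, and 48% to 49% of changes of 1. Changes of 1 lie on the limit itself, so that share says little of sensitivity. By adjusted p alone, 96% to 98% of them passed. In the measured data far more genes differed and the spread of a gene could differ between groups, so these rates need not hold there.

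The members, gene lists and tests were chosen with earlier results of these data known. Named genes are the members, up to 4 genes per list and comparison with the smallest adjusted p, and the 3 genes nearest to Ghr, Socs2 and Hsd3b5. Jak2, Cux2, Cd5l, Clec4f, Hamp, Oat and Cxcr4 fall outside this rule and were picked with their values known. Eif2s3y and Xist check the labelled sex, and Actb and Gapdh the RNA. Sart1 is given as the gene altered in the mutant and does not check the genotype. Listed genes with no probe set of their own symbol were not analysed here. Alternatives covered the threshold, filter, probe set rule, normalization, variance model, array weights, 2 groups alone, a replicate block and each array left out.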

Additional observations from a re-analysis of the deposited data

How the results depend on the processing

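The 30 member differences were recomputed under 22 alternatives, 9 of which leave out 1 array, giving 660 values. Of these, 632 kept their direction and side of the threshold, 14 lost the call, 12 gained it and 2 changed sign. The sign changes were of differences near 0: Socs2 in tumor against wild-type liver was 0.045 without tumor replicate 1 (adjusted p = 0.72), within a range of -0.18 to 0.045 over the arrays left out, and Stat5a in adjacent against wild-type liver was 0.067 with the mean of probe sets (adjusted p = 0.358). Members called numbered 6 in tumor against wild-type liver with each array left out, 6 to 7 in adjacent against wild-type liver, and 2 to 4 between tumor and adjacent liver. With adjusted p alone and no 2-fold limit they were 8, 9 and 8, and the genes called were 8799, 8745 and 6274 in place of 1806, 1599 and 700. Leaving out arrays gave 1795 to 1838, 1592 to 1645 and 681 to 732 genes. Centring arrays on their medians put Ghr in adjacent liver at -0.98, just short of the limit. The Mup10 call between tumor and adjacent liver was also lost with robust eBayes (adjusted p = 0.0799) and with 2 groups alone (adjusted p = 0.0537), and Mup3 gained one with array weights (-1.26, adjusted p = 0.0465). Bcl6 passed the limit there without tumor replicate 3, at 1.02. The averaged probe sets of Mup3 gave -2.96 in tumor and -2.65 in adjacent liver against wild-type liver.

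The replicate numbers of the labels were not used as pairs in the main fit. Deviations of same-numbered pieces correlated at -0.11 to 0.14 over all groups, against -0.17 to 0.15 for other pairs. For tumor with adjacent liver alone these were 0.04 to 0.09 and -0.17 to 0.10. With 3 pieces per group this cannot settle whether the numbers pair tumor and adjacent pieces. With the number as a replicate block, 6, 7 and 3 members were called, as without it, and 1807, 1599 and 700 genes. Dim values limit the size of the Hsd3b5 and Mup10 differences, and animals were not replicated. The cause of the lost calls was not tested.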

Other observations

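Other genes varied between the adjacent pieces as the Mup genes did. The widest range of all 13888 genes was that of Hamp, which encodes the iron hormone hepcidin, at 10.87, 7.01 and 9.23 in adjacent pieces 1, 2 and 3. Oat, the pericentral enzyme ornithine aminotransferase, followed Mup3 at 11.17, 8.42 and 10.43, and Cxcr4, a chemokine receptor, ran the other way at 5.65, 7.92 and 6.34. In wild-type liver Hamp was at 12.95, 12.94 and 13.08, Oat at 13.36, 13.34 and 13.52, and Cxcr4 at 4.52, 4.75 and 4.56. Mup5, at 7.21, 6.24 and 6.77, and Elovl3 and Slco1a1 were also lowest in adjacent piece 2. These genes were picked once their values were known, and nothing in the labels tells the pieces apart.

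All arrays carried the signal of male tissue that the labels give. The Y-linked gene Eif2s3y was at 8.73 to 8.94 in tumor, 9.52 to 9.55 in adjacent liver and 9.05 to 9.14 in wild-type liver, and the brightest probe set of Xist, the X-inactivation RNA, was at 5.26 to 5.41, 5.43 to 5.65 and 5.83 to 6.11 in the same tissues.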
